A study of Homo sapiens with 9 samples.

Results

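The comparison described here sets A375 human melanoma cells carrying the SPANX knockdown construct 87 against A375 cells of the EV control, with RNA taken 7 days after knockdown. Its members are 6 of the 9 libraries of the series, namely the 3 titled for construct 87 and the 3 titled EV. The other 3 libraries carry construct 86, a further SPANX knockdown construct, enter the common scaling and the estimate of spread, and are given beside construct 87 for a few genes. All groups share the same cell line, and the labels name no drug or other agent. Expression was counted from transcript 3' ends (QuantSeq 3' mRNA-Seq), so a value is a number of reads per gene, and levels of different genes are not set against each other per length. Of 60420 gene IDs listed in each file, 13825 were above 0 in the files of both groups and were tested.

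SPANX genes are cancer-testis antigens. They are normally expressed in developing sperm, where the proteins sit at the nuclear envelope, and they are switched on again in some melanomas. The series asks, by its title, how SPANX bears on Lamin A/C, on the architecture of the nucleus and on melanoma growth. A-type and B-type lamins form the meshwork under the inner nuclear membrane, to which chromatin and nuclear pores are attached.

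The targeted transcripts were checked first. Of 10 protein-coding SPANX genes in the files, SPANXC and SPANXD were above 0. SPANXC (ENSG00000198573.6) stood at 400, 150 and 511 normalised reads in the EV libraries and at 25.2, 18.0 and 33.6 after construct 87. SPANXD (ENSG00000196406.4) stood at 102, 27.4 and 97.0 normalised reads in the EV libraries and at 5.25, 5.99 and 7.13 after construct 87. No construct 87 library overlapped an EV library for either gene. SPANXC fell 12.2-fold (log2 -3.60, SE 0.51, adjusted p = 0.00334) and SPANXD 9.31-fold (log2 -3.22, SE 0.57, adjusted p = 0.00804) in limma. The sum of both genes differed by -3.61 on the log2 scale, with an exact two-sided permutation p = 0.1, the smallest that 3 libraries against 3 allow. The SPANX genes are near-identical copies, so reads of one can be counted for another and the sum is the firmer value.

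Depth was between 12.3 and 14.6 M recovered reads in the EV libraries and between 12.7 and 15.3 M after construct 87. Replicates correlated across genes with r between 0.938 and 0.966 (EV) and between 0.959 and 0.979 (construct 87). Melanocyte-lineage markers of the labelled cell type were present, with SOX10, MITF, PMEL, S100A1, S100B and PRAME tested, while MLANA, TYR, TYRP1 and DCT were not above 0 in both groups' files. Of the markers of other cells, 8 of 10 for fibroblasts, 5 of 8 for neurons and glia, 4 of 10 for epithelium (KRT8, KRT10, KRT14 and KRT18), 3 of 10 for endothelium, 1 of 12 for leukocytes (LYZ) and 0 of 5 for red cells were above 0 in both groups' files. The epithelial markers summed to 8764 to 12830 normalised reads in EV and 7626 to 8760 after construct 87. The melanocyte-lineage markers summed to 4875 to 8621 and 10169 to 14156. EV replicate 2 stood apart from the other EV libraries in transcript length. Genes of the shortest transcripts (the first of 5 length classes) lay at -0.229 there and at 0.466 and 0.432 in EV replicates 1 and 3 (median log2 deviation). They lay at -0.012, -0.171 and 0.211 in the construct 87 libraries and between -0.407 and -0.08 with construct 86. EV replicates 1 and 3 were thus above all other libraries.

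Construct 87 changed 1431 of 13825 genes, which is 10.4% of those tested (limma, Benjamini-Hochberg adjusted p under 0.05). Of these, 818 rose (5.92%) and 613 fell (4.43%). Changes beyond 2-fold numbered 592 rises and 410 falls, and changes beyond 4-fold 120 rises and 61 falls. Libraries of replicate numbers 2 and 3 deviated together across the groups (r = 0.745 and 0.654). Those of number 1 hardly did so more than pairs of unlike number (0.208 against up to 0.151). Each count is also given from a fit with the replicate number as a block. With the block 4283 genes were called (31.0%), 2231 higher (16.1%) and 2052 lower (14.8%). All 1431 genes of the plain test were among them, in the same direction. These percentages are the background for the counts of gene lists below. No library overlapped between the groups in 4039 of the 13825 genes (29.2%), called or not, and in 1423 of the 1431 called. Libraries that do not overlap are thus nearly implied by a call and add little to it. Nothing in the labels says that replicates came from separate cultures, so the tests speak of variation among these libraries alone, and part of that variation may be technical.

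Which libraries were kept mattered for the number of calls. It was 369 without construct 87 replicate 1, 521 without EV replicate 1 and 608 without construct 87 replicate 2. Leaving out EV replicate 2 raised it to 2554. Of 237 called genes picked by the rule for named genes or from the lists, 125 lost their call without at least 1 library, 123 of them without construct 87 replicate 1. The change also ran with transcript length. The median log2 fold change ran from -0.22 in the shortest of 5 classes of transcript length to 0.19 in the longest. With that trend removed, 2096 of 13770 genes were called (15.2%), 1066 higher (7.74%) and 1030 lower (7.48%). With the trend removed and the block, 4783 were called (34.7%), 2345 higher (17.0%) and 2438 lower (17.7%).

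**Figure D1:**
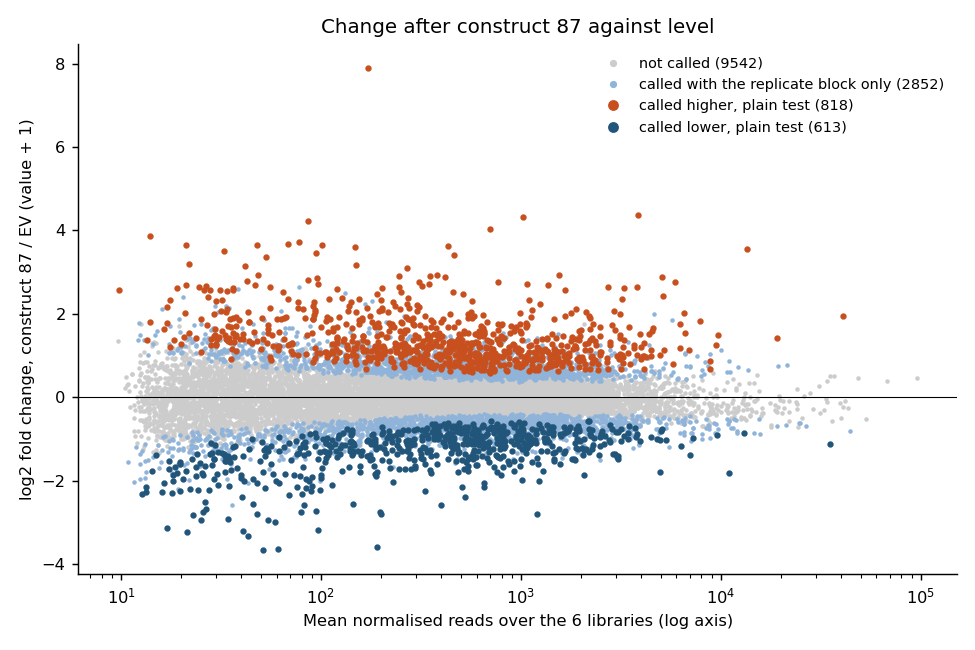
Each point is 1 of the 13825 genes tested, placed by its mean normalised reads over the 6 libraries (x, log axis) and by its log2 fold change of construct 87 over EV on value plus 1 (y). Orange and dark blue points are the 818 higher and 613 lower calls of the plain test and light blue points the 2852 genes called only with the replicate block, which lie closer to the line at 0.

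The largest rises joined a secreted IGF binding protein, inflammatory signalling genes and surface proteins. IGFBP3, which binds insulin-like growth factors outside the cell, stood at 241, 538 and 307 normalised reads in the EV libraries and at 9310, 4791 and 7864 after construct 87 (20.6-fold higher, adjusted p = 0.000217). IL1A, the proinflammatory cytokine interleukin 1 alpha, stood at 75.6, 69.4 and 163 in EV and at 1820, 1555 and 2442 after construct 87 (19.9-fold, adjusted p = 0.0135). BIRC3, a ubiquitin ligase of TNF receptor signalling, stood at 46.7, 69.4 and 147 against 1050, 1260 and 1643 (16.4-fold, adjusted p = 0.0123). For each of these genes the lowest construct 87 library was several times above the highest EV library.

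TRAF1, an adaptor of TNF receptors, stood at 65.6, 75.8 and 50.7 normalised reads in EV and at 866, 870 and 660 after construct 87 (12.4-fold, adjusted p = 0.000472). TNFRSF9, the costimulatory receptor 4-1BB, stood at 14.5, 5.48 and 10.8 against 124, 102 and 209 (13.2-fold, adjusted p = 0.0105). TMEM2, a cell surface hyaluronidase, stood at 1559, 3188 and 1248 against 40039, 25009 and 10044 (11.7-fold, adjusted p = 0.0029), which makes it the most abundant of the group. Its construct 87 libraries spread widely and all lay above the EV libraries.

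Of the remaining rises, SERPINI1, the serine protease inhibitor neuroserpin, rose 18.7-fold (adjusted p = 0.00148). ABCB4, a phospholipid transporter, rose 12.8-fold (adjusted p = 0.000669). FAM19A2, a small secreted protein, rose 12.6-fold (adjusted p = 0.00299) and MRGPRX4, a G protein-coupled receptor, 11.1-fold (adjusted p = 0.00251). CITED1, a transcriptional coregulator of the melanocyte lineage, stood at 36.7, 14.6 and 18.3 in EV and at 296, 255 and 266 after construct 87 (12.1-fold, adjusted p = 0.000393). MOBP, a myelin protein gene, had 1 recovered read in the EV libraries together and 1034 after construct 87, a depth-corrected ratio of 974.9 (95% exact interval 174.6 to 38544, counting error only). Its construct 87 libraries stood at 600, 204 and 229 normalised reads. On the log2(value + 1) scale of the other folds, MOBP rose 237.6-fold. The calls of IL1A and BIRC3 were lost without EV replicate 1 (adjusted p = 0.0661 for each) and without construct 87 replicate 1 (adjusted p = 0.0606 and 0.0522).

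The largest falls, beside SPANXC, included hormone and aldehyde reductases, a cell cycle transcription factor and developmental regulators. IL1RL1, the receptor for interleukin 33, stood at 88.9, 90.4 and 106 normalised reads in EV and at 6.31, 3.43 and 12.2 after construct 87 (12.7-fold lower, adjusted p = 0.00242). CALB1, the calcium-binding protein calbindin, stood at 138, 131 and 75.5 against 7.36, 9.42 and 7.13 (12.5-fold lower, adjusted p = 0.000626). MYBL2, the cell cycle transcription factor B-MYB, stood at 2480, 2599 and 1256 against 189, 373 and 339 (6.95-fold lower, adjusted p = 0.00155). It was the most abundant of the leading falls, and none of its libraries overlapped.

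AKR1C1 fell 9.14-fold (adjusted p = 0.000611) and AKR1C2 6.98-fold (adjusted p = 0.00483). Both encode aldo-keto reductases that act on steroids, and their sequences are so alike that reads could be exchanged between them. ST8SIA4, which adds polysialic acid to surface glycoproteins, stood at 416, 267 and 348 in EV and at 58.9, 41.1 and 48.9 after construct 87 (6.77-fold lower, adjusted p = 0.000472). NUPR1, a stress-induced chromatin protein, fell 7.70-fold (adjusted p = 0.00813), AK5, an adenylate kinase, 6.65-fold (adjusted p = 0.00804) and TFAP2B, a neural crest transcription factor, 6.01-fold (adjusted p = 0.00948). NR2F1-AS1 fell 6.74-fold (adjusted p = 0.0025); it lies antisense to NR2F1, and the strand setting of the counting is not given in the sources used here. S100P, a calcium-binding protein, fell 7.99-fold (adjusted p = 0.023). It passed no longer with EV replicate 1 left out (adjusted p = 0.097), nor with EV replicate 3 (0.0706), construct 87 replicate 1 (0.104) and construct 87 replicate 2 (0.0836). All 12 rises and 12 falls were also called with the replicate block.

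**Figure D2:**
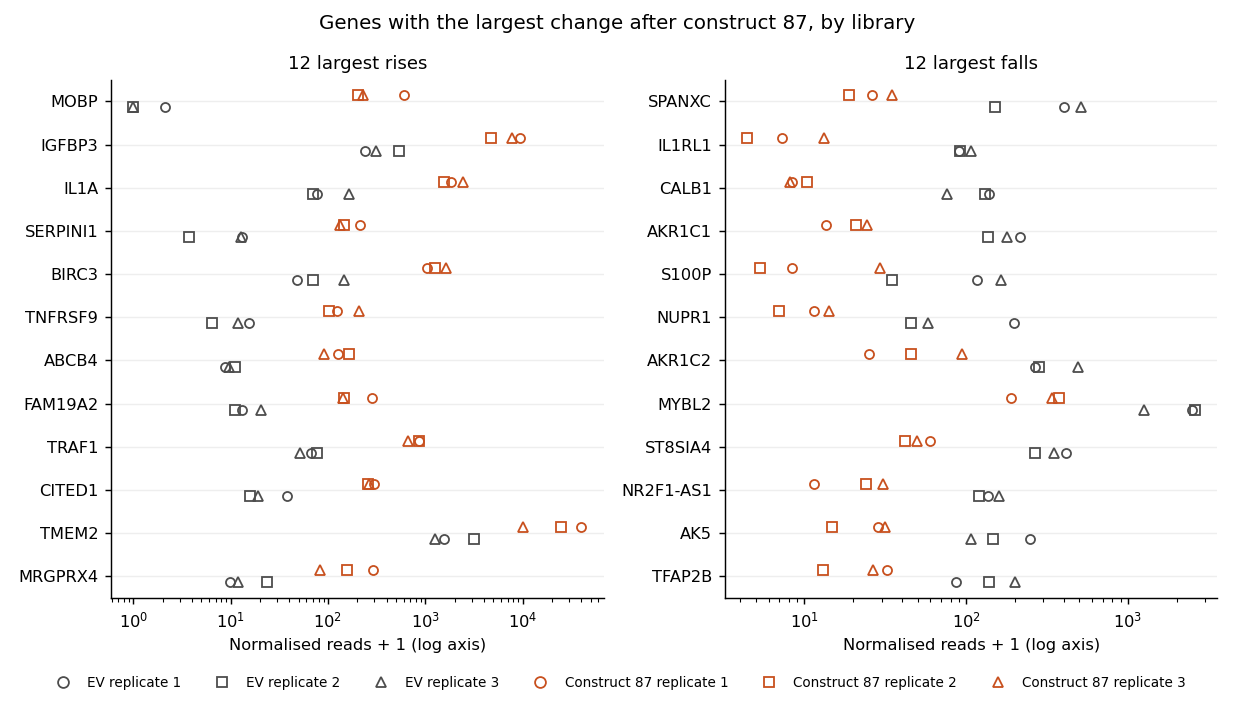
Normalised reads plus 1 (x, log axis) of the 12 largest rises and 12 largest falls among called genes of a mean of at least 50, in the 3 EV libraries (grey) and the 3 construct 87 libraries (orange), with a symbol for each replicate number. In every gene shown the 3 construct 87 libraries lie on one side of the 3 EV libraries, which the choice of genes required; TMEM2 spans 10044 to 40039 after construct 87.

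In absolute reads, the greatest gain was of SPARC, a secreted matrix glycoprotein, from 15377, 16671 and 18683 normalised reads to 75007, 60280 and 60266 (3.85-fold, adjusted p = 0.00161). DCBLD2, a neuropilin-like surface receptor, rose from 7853, 12122 and 11569 to 31699, 28035 and 23430 (2.66-fold, adjusted p = 0.0065). HMGA2, an architectural chromatin protein, rose from 3548, 5874 and 6011 to 12748, 14647 and 15111 (2.82-fold, adjusted p = 0.00509). INHBA, the activin A subunit, rose from 1419, 1436 and 1726 to 11693, 9587 and 9632 (6.74-fold, adjusted p = 0.00607). No library of these 4 genes overlapped between groups, which held for 1423 of the 1431 called genes.

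On the losing side, SERPINE2, the protease inhibitor nexin 1, went from 41676, 40511 and 63296 normalised reads to 17154, 20299 and 28911 (2.20-fold lower, adjusted p = 0.0262). TIMP3, an inhibitor of metalloproteinases bound to the matrix, went from 11887, 24045 and 15844 to 4544, 5859 and 3809 (3.55-fold lower, adjusted p = 0.0065). OAZ1, the antizyme that directs ornithine decarboxylase to degradation, went from 10651, 5209 and 7372 to 1654, 2106 and 2862 (3.45-fold lower, adjusted p = 0.00607). NUCKS1, a chromatin protein of DNA repair, fell 2.62-fold (adjusted p = 0.0101), the tubulin TUBA1C 1.88-fold (adjusted p = 0.0351) and the mitochondrial chaperonin HSPD1 1.81-fold (adjusted p = 0.0428). TNC, the matrix protein tenascin C, rose 3.57-fold (adjusted p = 0.0322), from 1965, 6775 and 2410 to 14918, 14589 and 6688, so that construct 87 replicate 3 lay below EV replicate 2.

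Several of these calls were lost when 1 library was left out. Without construct 87 replicate 1 the calls were lost for NUCKS1 (adjusted p = 0.0569), TNC (0.142), SERPINE2 (0.133), HSPD1 (0.19) and TUBA1C (0.153). Without EV replicate 1 they were lost for TNC (0.133), SERPINE2 (0.0616), HSPD1 (0.142) and TUBA1C (0.12). Without construct 87 replicate 2 they were lost for TNC (0.108), SERPINE2 (0.0971), HSPD1 (0.111) and TUBA1C (0.093). TNC (0.0883) and SERPINE2 (0.057) also lost theirs without EV replicate 3, and TUBA1C (0.0567) without construct 87 replicate 3. TUBA1C has near-identical tubulin copies, so its reads are less certain.

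Genes of cell division were lower. In these bulk samples, fewer cells of a kind and less RNA per cell cannot be told apart. In the cell cycle, cyclins and their kinases drive the phases, the MCM helicase and its partners copy DNA, and kinetochores and spindle motors segregate it. Among 29 mitotic cyclins and kinases tested, 14 fell and 1 rose (24 and 1 with the block), with a median log2 fold change of -1.15 against 0.00 over all genes tested. Of 35 spindle and cytokinesis genes 14 fell and 0 rose (31 and 0 with the block, median -0.93). Of 36 kinetochore and centromere genes 14 fell and 0 rose (26 and 1 with the block, median -0.90). The single rise was WEE1, a kinase that inhibits CDK1.

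CCNB2, a mitotic cyclin, stood at 1617, 1375 and 1392 normalised reads in EV and at 394, 590 and 614 after construct 87 (2.78-fold lower, adjusted p = 0.00364). CENPA, the histone variant that marks centromeres, stood at 607, 394 and 498 against 124, 162 and 207 (3.05-fold lower, adjusted p = 0.00495). NEK2, a centrosome kinase, fell 3.09-fold (adjusted p = 0.00707), CCNA2, cyclin A2, 2.77-fold (adjusted p = 0.00804) and SPC24, a kinetochore subunit, 2.73-fold (adjusted p = 0.00935). HMMR, a spindle and hyaluronan-binding protein, stood at 956, 1268 and 1517 against 230, 363 and 452 (3.64-fold lower, adjusted p = 0.0124). The lowest value of each of these genes was in construct 87 replicate 1.

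Promoters of 3 of these genes are shown because the 3 mitotic lists share a short promoter motif. The cell cycle homology region (CHR, letters TTTGAA, searched on both strands) is the element through which the DREAM and MuvB complexes are known to act on late cell cycle genes. Each stretch is from RefSeq (GRCh38.p14), reads 5′ to 3′ on the gene's strand, and has the motif in capitals.
CCNB2, chr15:59105072-59105167, plus strand: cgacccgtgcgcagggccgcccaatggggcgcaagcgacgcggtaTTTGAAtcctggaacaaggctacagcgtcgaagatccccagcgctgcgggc
CENPA, chr2:26785993-26786088, plus strand: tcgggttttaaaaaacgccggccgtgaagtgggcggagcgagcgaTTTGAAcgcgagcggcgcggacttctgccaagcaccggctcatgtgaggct
HMMR, chr5:163460565-163460660, plus strand: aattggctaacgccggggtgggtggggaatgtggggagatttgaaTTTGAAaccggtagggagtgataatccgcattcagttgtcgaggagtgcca
The copy in capitals begins 29, 18 and 22 bases before the annotated start in CCNB2, CENPA and HMMR. HMMR holds the motif 2 times, the other copy directly before the capitals.

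Over promoters of 300 bases (250 before to 50 after the start), the CHR letters occurred in 51 of 84 genes of the 3 mitotic lists (60.7%). They occurred in 1016 of 10556 tested genes with a promoter in the table (9.62%) and in 4212 of all 27305 promoters of the table (15.4%). Among the mitotic genes the share was alike in those called lower, 21 of 34 (61.8%), and in the others, 30 of 50 (60%). It stood in 72 of 467 genes called lower (15.4%), in 51 of the 433 of these outside the mitotic lists (11.8%), and in 45 of 643 called higher (7%). None of 35 replication genes held it. A match describes these letters in this window and does not show binding.

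DNA replication genes were lower as well. Of 42 licensing and fork genes 14 fell and 0 rose (34 and 0 with the block, median -0.83), and all 42 had a negative log2 fold change. MCM6, a helicase subunit, stood at 1680, 1783 and 1060 normalised reads in EV and at 392, 505 and 508 after construct 87 (3.16-fold lower, adjusted p = 0.00334). GINS2, a partner of that helicase, stood at 1022, 537 and 960 against 185, 223 and 323 (3.40-fold lower, adjusted p = 0.00815). The E2F motif GGCGGGAA, bound by the E2F factors of S phase genes, occurred on either strand in 9 of 35 replication promoters (25.7%), in 7 of 84 mitotic ones (8.33%) and in 537 of 10556 tested genes (5.09%). GINS2 carries it 32 bases before its start, shown as the example of that set.
GINS2, chr16:85688934-85689031, minus strand: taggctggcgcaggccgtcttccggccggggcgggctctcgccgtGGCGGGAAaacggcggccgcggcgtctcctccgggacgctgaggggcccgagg

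Nucleotide synthesis followed, with 6 of 25 genes lower and 0 higher (13 and 0 with the block). TK1, thymidine kinase, stood at 2620, 2058 and 1345 in EV and at 400, 648 and 693 after construct 87 (3.42-fold lower, adjusted p = 0.00543), and DHODH, of pyrimidine synthesis, fell 2.26-fold (adjusted p = 0.00865). E2F1 itself stood at 830, 918 and 653 against 194, 355 and 352 (2.73-fold lower, adjusted p = 0.00804), one of 5 of 21 DREAM, E2F and MuvB regulators that fell, with 0 that rose (9 and 3 with the block). Of 33 DNA repair genes 4 fell and 0 rose (16 and 0 with the block), and of 20 condensin, cohesin and topoisomerase genes 4 fell and 0 rose (11 and 0 with the block). MKI67, the proliferation marker, was at 2070, 6579 and 1132 in EV and 1085, 2063 and 566 after construct 87 and did not pass the plain test (log2 -1.20, SE 0.65, adjusted p = 0.263), but was called with the block (adjusted p = 0.00279).

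Over the 241 genes of these 8 lists 75 fell and 1 rose (164 and 5 with the block). The falls numbered 14 without construct 87 replicate 1, 19 without EV replicate 1 and 46 without construct 87 replicate 2. HMMR lost its call without construct 87 replicate 1 (adjusted p = 0.0683). With the length trend removed, 29 replication genes, 25 spindle genes and 21 mitotic cyclins and kinases fell. The list medians by library in the plot of list positions were lowest in construct 87 replicate 1, at -1.71 for mitotic cyclins and kinases against -0.94 and -0.87 in replicates 2 and 3.

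**Figure D3:**
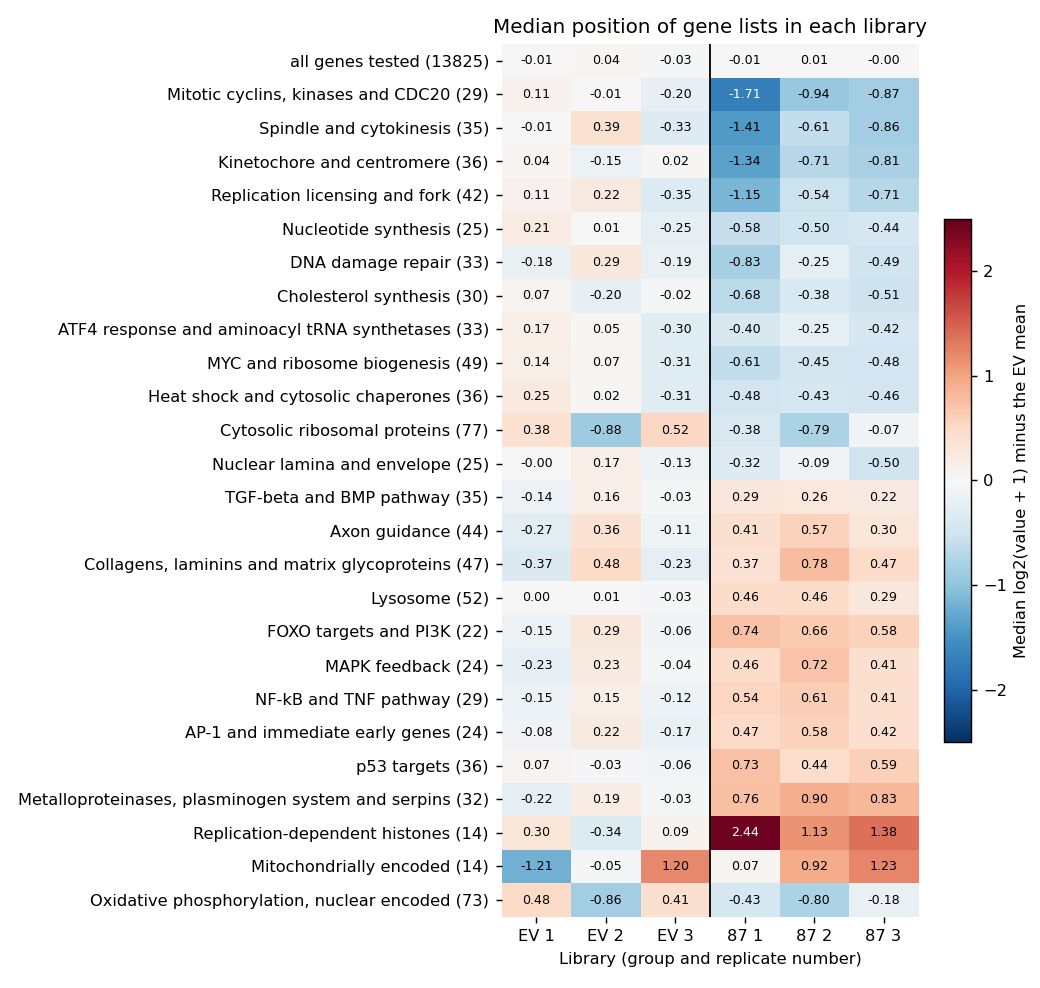
Each cell gives the median, over the members of a gene list (rows, number of genes in brackets), of log2(value + 1) in a library (columns) minus the gene's mean over the EV libraries. The 4 cell division lists lie between -0.54 and -1.71 in the construct 87 libraries and histones between 1.13 and 2.44, while ribosomal protein genes at -0.88 and mitochondrially encoded genes at -1.21 and 1.20 stand apart within the EV group.

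Among p53 target genes calls were in the direction of rises. The p53 protein switches on genes for arrest, repair and apoptosis. Of 36 of its targets 14 rose and 0 fell (20 and 1 with the block, median 0.55). They were CDKN1A, MDM2, BBC3, TNFRSF10B, SESN2, TP53INP1, BTG2, PLK3, RRM2B, ZMAT3, PHLDA3, EDA2R, TP53INP2 and POLK. ZMAT3, an RNA-binding p53 target, stood at 427, 493 and 415 normalised reads in EV and at 2058, 1303 and 1247 after construct 87 (3.37-fold higher, adjusted p = 0.00279). TP53INP1, a stress protein of the same set, rose 3.50-fold (adjusted p = 0.0026) and BBC3, the apoptosis activator PUMA, 2.62-fold (adjusted p = 0.00272).

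CDKN1A, the CDK inhibitor p21, stood at 5584, 3889 and 3627 in EV and at 11776, 8345 and 8245 after construct 87 (2.17-fold higher, adjusted p = 0.0135). CDKN1C, the inhibitor p57, rose 2.88-fold (adjusted p = 0.0119) and stood at 265, 301 and 207 against 1200, 575 and 575. The list of G1 cyclins, kinases and inhibitors held 4 rises and 2 falls among 15 genes (6 and 2 with the block). Of 17 BCL2 family genes 3 rose, MCL1, BMF and BBC3, and 1 fell, BID (6 and 1 with the block). BMF, an activator of apoptosis, rose 4.24-fold (adjusted p = 0.00804) and MCL1, which protects from it, 2.36-fold (adjusted p = 0.01).

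Transcripts of replication-dependent histones, which normally end without a poly(A) tail and are read here only where a tail is present, were among the rises. Of 14 tested 10 rose and 0 fell (11 and 0 with the block, median 1.55), and the rises numbered 3 without construct 87 replicate 1 and 6 without EV replicate 1. HIST2H2BE stood at 88.9, 54.8 and 75.5 normalised reads in EV and at 1143, 420 and 331 after construct 87 (7.47-fold higher, adjusted p = 0.00638). HIST1H4H stood at 21.1, 14.6 and 32.3 against 242, 126 and 140 (7.22-fold, adjusted p = 0.00223), and HIST1H2BD rose 3.88-fold (adjusted p = 0.00638). All 3 were highest in construct 87 replicate 1. Histone genes have near-identical copies. Over the 77 genes of these 4 lists 29 rose and 3 fell (41 and 4 with the block). The rises numbered 10 without construct 87 replicate 1, 17 without EV replicate 1 and 17 without construct 87 replicate 2. CDKN1A (adjusted p = 0.0733) and MCL1 (0.0572) lost their calls without construct 87 replicate 1, and BID lost its call without 4 of the libraries (adjusted p up to 0.173).

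The lamins did not pass the plain test. LMNA, the gene of lamin A and lamin C, stood at 24939, 34054 and 18349 normalised reads in EV and at 22811, 26041 and 18642 after construct 87, with all 3 values inside the EV range (log2 -0.16, SE 0.30, adjusted p = 0.761, and 0.527 with the block). Its log2 fold change turned to 0.06 without EV replicate 2. LMNB1 stood at 2234, 2893 and 1324 against 1028, 1890 and 1311 (log2 -0.58, SE 0.30, adjusted p = 0.234, and 0.0613 with the block). LMNB2 stood at 2908, 4277 and 1489 against 1495, 2202 and 1405 (log2 -0.67, SE 0.35, adjusted p = 0.25) and was called lower with the block (adjusted p = 0.0282). EMD, the inner membrane protein emerin, stood at 1067, 930 and 689 against 1248, 1237 and 1119 (log2 0.45, SE 0.19, adjusted p = 0.159). It was called higher with the block (adjusted p = 0.0437), its libraries not overlapping, as in 29.2% of all genes tested.

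Of 25 genes of the lamina and envelope 1 fell and 0 rose in the plain test, near the background of all genes (9 and 1 with the block). The fall was TMPO, encoding the lamina-associated polypeptide 2 proteins, from 3985, 3922 and 3344 to 1268, 1896 and 2345 (2.10-fold, adjusted p = 0.019). Among 41 nuclear pore and importin genes 5 fell and 0 rose (13 and 1 with the block), led by RCC1, the exchange factor of RAN (2.53-fold, adjusted p = 0.0118). Of 27 histone variants, linker histones and HMG proteins 4 fell and 2 rose (13 and 2 with the block). HMGB3, a DNA-bending protein, stood at 1410, 950 and 778 against 266, 392 and 383 (2.96-fold lower, adjusted p = 0.00517). Of 31 Polycomb, methylation and heterochromatin genes 3 rose and 2 fell (11 and 6 with the block), among them KDM5B, a histone demethylase (2.40-fold higher, adjusted p = 0.00926), and EZH2, the Polycomb methyltransferase (1.68-fold lower, adjusted p = 0.0424).

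These nuclear calls were fragile. Over the 124 genes of the 4 lists 12 fell and 5 rose, and the falls dropped to 1 when replicate 1 of either group was left out and to 3 when construct 87 replicate 2 was, while 12 rose without EV replicate 2. TMPO lost its call without EV replicate 1 (adjusted p = 0.0745), construct 87 replicate 1 (0.0831) or construct 87 replicate 2 (0.055). RCC1 lost it without EV replicate 1 (0.0573) or construct 87 replicate 1 (0.0672) and KDM5B without the latter (0.0522). EZH2 lost it without any 1 of the 6 libraries (0.0607 to 0.175).

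Among genes of the extracellular matrix and of its remodelling more rose than fell. Collagens, laminins and glycoproteins form the matrix, integrins anchor cells to it, and metalloproteinases and plasmin cut it. Of 47 matrix genes 11 rose and 1 fell (24 and 4 with the block, median 0.56). COL4A1, a basement membrane collagen, stood at 2155, 4268 and 2327 normalised reads in EV and at 9286, 12023 and 7291 after construct 87 (3.36-fold higher, adjusted p = 0.00646). SCUBE3, a secreted signalling glycoprotein, rose 4.87-fold (adjusted p = 0.00554). The fall was BGN, the small proteoglycan biglycan, from 163, 391 and 195 to 29.4, 50.5 and 37.7 (5.93-fold, adjusted p = 0.00244).

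Proteases and their inhibitors moved in both directions. Of 32 genes of this kind 13 rose and 3 fell (15 and 4 with the block, median 0.70). TIMP2 stood at 1307, 1794 and 1701 against 3902, 4096 and 3936 (2.51-fold higher, adjusted p = 0.00272), whereas TIMP3 fell. MMP1, the interstitial collagenase, stood at 341, 302 and 248 against 88.3, 76.2 and 89.6 (3.46-fold lower, adjusted p = 0.0023), whereas MMP2, MMP8, MMP14, MMP15 and MMP19 were among the rises.

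Of 29 integrin and adhesion genes 4 rose and 2 fell (14 and 6 with the block). ITGB8, an integrin chain that binds latent TGF-beta, stood at 627, 1054 and 1064 against 7567, 4953 and 4323 (6.13-fold higher, adjusted p = 0.000859). ITGAV, its partner chain, rose 2.76-fold (adjusted p = 0.00334). CDH11, a mesenchymal cadherin, stood at 87.8, 137 and 147 against 15.8, 32.5 and 35.6 (4.44-fold lower, adjusted p = 0.00638). None of the libraries of these genes overlapped between groups, as in 1423 of the 1431 called genes.

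In the TGF-beta and BMP pathway, where ligands signal through receptor kinases to SMAD factors, 7 of 35 genes rose and 5 fell (11 and 8 with the block). The receptor TGFBR2 stood at 1031, 1417 and 1065 in EV and at 4741, 3775 and 2866 after construct 87 (3.20-fold higher, adjusted p = 0.00272), while TGFBR1 was among the falls. PMEPA1, a TGF-beta target that restrains the pathway, stood at 1109, 1240 and 1283 against 10175, 7628 and 9185 (7.39-fold higher, adjusted p = 0.00148); an antisense transcript lies at this gene. BAMBI, a decoy receptor, rose 2.32-fold (adjusted p = 0.00504), and BMP2 was among the rises while BMP4, SMAD6, FST and FSTL1 were among the falls.

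The IGF list held 5 rises and 3 falls among 18 genes (8 and 7 with the block). PAPPA, a protease that releases IGF from its binding proteins, rose 4.23-fold (adjusted p = 0.00793) beside IGFBP3, while IGFBP4, IGFBP6 and IGFBP7 fell. Of 24 YAP targets 3 rose and 2 fell (10 and 3 with the block), with NT5E, the ectonucleotidase CD73, from 667, 1287 and 1576 to 4847, 4783 and 4358 (4.21-fold higher, adjusted p = 0.0029) and NUAK2, a kinase, 2.72-fold higher (adjusted p = 0.00926). Over the 180 genes of these 6 lists 42 rose and 16 fell (78 and 32 with the block). The rises numbered 20 without construct 87 replicate 1, 22 without EV replicate 1 and 24 without construct 87 replicate 2, and the falls 5, 7 and 8 in the same order and 10 without EV replicate 3.

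Some markers of fibroblasts rose beside the matrix genes. Of 10 such markers 8 were tested, of which 3 rose and 0 fell (4 and 0 with the block), and their summed level ran from 460 to 551 normalised reads in EV and from 931 to 1142 after construct 87. LUM, the proteoglycan lumican, rose from 173, 32.0 and 95.9 to 710, 375 and 534 (6.36-fold, adjusted p = 0.0104), and DCN and PDGFRA also rose. LUM made up most of the summed level after construct 87 in replicate 1. COL1A2, PDGFRB, FAP and POSTN did not pass (log2 -0.11 to 0.54, adjusted p = 0.466 to 0.976). COL3A1 and THY1 were not above 0 in both groups' files, and COL1A1 did not pass the plain test (82.2, 108 and 89.5 against 104, 163 and 218, adjusted p = 0.201). Their part in the matrix result was not tested. LUM lost its call without construct 87 replicate 1 (adjusted p = 0.0596), DCN without every library but EV replicate 1 (0.0531 to 0.178) and PDGFRA without EV replicates 1 and 3 and construct 87 replicates 1 and 2 (0.0503 to 0.0987).

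Some feedback inhibitors of MAP kinase signalling rose. A375 cells carry an activated BRAF kinase, and some DUSP phosphatases and SPRY proteins are induced by this pathway and limit it. Other DUSP phosphatases, such as DUSP8 and DUSP10, act on JNK and p38. Of 24 such genes 7 rose and 0 fell (11 and 0 with the block, median 0.58), and 4 rose without EV replicate 1 or construct 87 replicate 1 or 2. DUSP10, a phosphatase of JNK and p38, stood at 251, 238 and 235 normalised reads in EV and at 923, 928 and 851 after construct 87 (3.72-fold higher, adjusted p = 0.000393). DUSP5, a nuclear ERK phosphatase, stood at 373, 511 and 429 against 2328, 2283 and 1572 (4.67-fold, adjusted p = 0.000481). DUSP8 rose 8.86-fold (adjusted p = 0.00299) and SPRY2 2.40-fold (adjusted p = 0.0065).

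Immediate early genes, which respond to such signals within minutes, held 8 rises and 1 fall among 24 (10 and 2 with the block, median 0.48). EGR3 stood at 80.0, 158 and 114 in EV and at 363, 382 and 423 after construct 87 (3.41-fold higher, adjusted p = 0.00353), and ZFP36, which destabilises cytokine mRNAs, rose 2.496-fold (adjusted p = 0.00804). JUN, an AP-1 subunit, stood at 713, 791 and 484 against 1843, 1578 and 1212 (2.34-fold, adjusted p = 0.0104). EGR1, at 159, 187 and 175 against 135, 104 and 90.6, did not pass the plain test (adjusted p = 0.0845). The fall was MYC, from 285, 322 and 376 to 121, 125 and 206 (2.22-fold, adjusted p = 0.0263).

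The NF-kB and TNF list held 9 rises and 0 falls among 29 genes (13 and 4 with the block, median 0.53). NF-kB factors are held in the cytoplasm by inhibitors and, once released, induce inflammatory and survival genes, their own subunits included. The rises were NFKB1, NFKB2, RELB, NFKBIE, TRAF1, BIRC3, TNFRSF9, ICAM1 and CD83. CD83, a surface protein of activated immune cells, stood at 66.7, 75.8 and 56.1 in EV and at 180, 168 and 177 after construct 87 (2.64-fold higher, adjusted p = 0.0065). NFKB1, the p105 and p50 subunit, stood at 855, 1501 and 749 against 2643, 2307 and 1569 (2.15-fold, adjusted p = 0.0398).

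Promoter stretches of TNFRSF9 and NFKB1 are shown because both genes were called and hold the kappa B motif (GGGAN followed at once by TTTCC, where N is any base, both strands searched), from RefSeq (GRCh38.p14), with the motif in capitals.
TNFRSF9, chr1:7940859-7940958, minus strand: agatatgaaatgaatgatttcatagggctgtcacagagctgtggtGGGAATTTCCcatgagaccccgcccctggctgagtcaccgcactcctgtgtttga
NFKB1, chr4:102501265-102501364, plus strand: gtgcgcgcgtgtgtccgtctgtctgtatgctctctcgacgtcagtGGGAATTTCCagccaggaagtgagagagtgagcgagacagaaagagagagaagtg
The motif begins 74 and 49 bases before the start. It occurred in 5 of 26 promoters of the NF-kB list (19.2%), in 59 of 10556 tested genes (0.559%), in 158 of 27305 promoters of the table (0.579%), in 7 of 643 genes called higher (1.09%) and in 0 of 467 called lower. These letters are a strict form of a variable site, so no match says only that they are not in this window.

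Secreted signals joined them in part. Of 37 cytokines, chemokines and growth factors 5 rose (IL1A, IL24, ANGPTL4, HBEGF and TGFA) and 1 fell (KITLG), and 12 and 5 were called with the block. IL24, a cytokine of the IL-10 family, stood at 1327, 614 and 475 in EV and at 5391, 4922 and 3584 after construct 87 (6.26-fold higher, adjusted p = 0.00272). ANGPTL4, a secreted inhibitor of lipoprotein lipase, rose 6.16-fold (adjusted p = 0.00272), from 51.1, 40.2 and 66.8 to 291, 212 and 544. CSF2, the growth factor GM-CSF, stood at 34.5, 33.8 and 79.8 against 91.4, 200 and 560 and was called only with the block (adjusted p = 0.00491, and 0.154 in the plain test).

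Class I HLA genes, which present peptides to T cells, were among the rises. HLA-B stood at 1389, 1321 and 1617 in EV and at 5197, 3776 and 4389 after construct 87 (3.07-fold higher, adjusted p = 0.00223). HLA-C rose 1.79-fold (adjusted p = 0.0105). Class I genes are alike in sequence and reads can be shared among them. CD274, the T cell inhibitory ligand PD-L1, stood at 76.7, 61.2 and 59.3 against 164, 167 and 197 (2.66-fold higher, adjusted p = 0.00624). They were among 4 rises of 25 antigen presentation genes, with 0 falls (9 and 3 with the block). Of 40 interferon-response genes 2 rose, DDX58, a sensor of viral RNA (3.47-fold, adjusted p = 0.00509), and IFI35 (2.23-fold, adjusted p = 0.00808), and 0 fell (10 and 4 with the block, median 0.05).

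Of 16 complement and coagulation genes 5 rose and 1 fell (9 and 4 with the block). CFI, a complement protease, rose 2.71-fold (adjusted p = 0.00886). Over the 192 genes of these 7 lists 40 rose and 3 fell (74 and 22 with the block). The rises numbered 18 without construct 87 replicate 1, 24 without construct 87 replicate 2 and 25 without EV replicate 1. Without construct 87 replicate 1 JUN (adjusted p = 0.0599) and HLA-C (0.0608) lost their calls. NFKB1 and MYC lost theirs without EV replicate 1 or 3 or construct 87 replicate 1 or 2 (0.111 to 0.173 for NFKB1, 0.0667 to 0.12 for MYC). LYZ, the only leukocyte marker tested, stood at 145 to 262 in EV and 366 to 819 after construct 87, and its call was lost without EV replicate 1 or 2 (adjusted p = 0.1 and 0.0576) or construct 87 replicate 1 or 2 (0.141 and 0.0537), while PTPRC, CD3E, CD14 and CD68 were not above 0 in both groups' files.

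**Figure D4:**
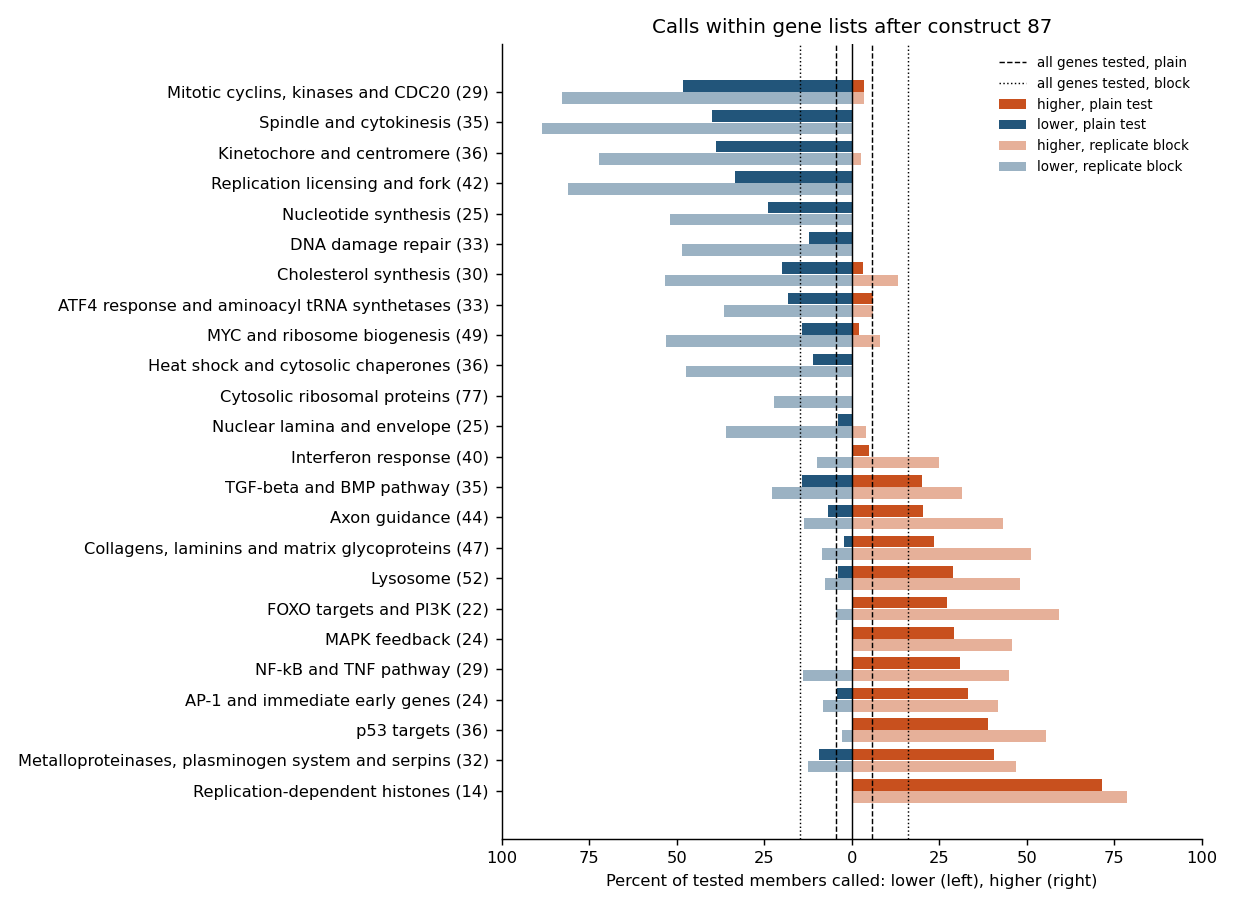
Share of the tested members of each gene list (number in brackets) called lower, to the left, and higher, to the right, in the plain test (dark bars) and with the replicate block (pale bars). Dashed and dotted lines give the shares over all genes tested, 4.43% lower and 5.92% higher in the plain test and 14.8% and 16.1% with the block.

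Among lysosomal genes more rose than fell. Lysosomes hold acid hydrolases that break down proteins, glycans and lipids, and autophagy delivers cell content to them. Of 52 lysosomal genes 15 rose and 2 fell (25 and 4 with the block, median 0.42). CTSS, a cysteine protease, stood at 70.0, 68.5 and 100 normalised reads in EV and at 535, 490 and 592 after construct 87 (6.78-fold higher, adjusted p = 0.00447). CTSA, which protects lysosomal glycosidases, stood at 1499, 1916 and 1698 against 5335, 4605 and 3730 (2.66-fold, adjusted p = 0.00327). The mannosidases MANBA and MAN2B1 rose 3.18-fold (adjusted p = 0.00411) and 2.87-fold (adjusted p = 0.00638). The falls were PPT1, a thioesterase, and ATP6V1H, a proton pump subunit.

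Of 33 autophagy genes 6 rose and 0 fell (16 and 0 with the block, median 0.38). TP53INP2, a nuclear protein that takes part in autophagosome formation, stood at 133, 169 and 141 against 778, 538 and 367 (3.62-fold higher, adjusted p = 0.00448). FOXO factors are held back by PI3K and AKT and are known to induce several of these genes. Of 22 FOXO and PI3K genes 6 rose and 0 fell (13 and 1 with the block, median 0.68), among them FOXO1 itself, from 53.3, 89.5 and 74.4 to 201, 200 and 164 (2.62-fold, adjusted p = 0.00951). The FOXO and PI3K rises numbered 0 without construct 87 replicate 1 and 3 without EV replicate 1 or construct 87 replicate 2. Over the 106 genes of the 3 lists 26 rose and 2 fell (53 and 5 with the block). The rises numbered 9 without construct 87 replicate 1, 12 without EV replicate 1 and 13 without construct 87 replicate 2, and FOXO1 lost its call without the first of these (adjusted p = 0.0522).

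Genes of protein synthesis and folding were lower mainly in the blocked fit. MYC and its partners drive ribosome production in growing cells. Of 49 genes of MYC and ribosome biogenesis 7 fell and 1 rose in the plain test (26 and 4 with the block, median -0.50). LYAR, a nucleolar protein, stood at 2398, 1663 and 2080 normalised reads in EV and at 578, 761 and 1178 after construct 87 (2.52-fold lower, adjusted p = 0.0123). MXD1, an antagonist of MYC, stood at 83.3, 188 and 130 against 626, 468 and 260 and was the rise (3.32-fold, adjusted p = 0.0163). MXD3, of the same family as MXD1, was among the 7 falls. The call of MXD3 was lost without EV replicate 1 (adjusted p = 0.0517), construct 87 replicate 1 (0.0632) or construct 87 replicate 2 (0.0515). From the list of translation initiation genes, EIF4EBP1, an inhibitor of cap-dependent translation, stood at 2498, 1243 and 1770 against 397, 537 and 895 (3.06-fold lower, adjusted p = 0.0124).

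Of 36 heat shock genes and chaperones 4 fell and 0 rose (17 and 0 with the block, median -0.44), among them HSPA9, of mitochondrial import, from 11231, 10507 and 7215 to 4204, 5061 and 5280 (1.96-fold, adjusted p = 0.0185). Of 36 SR and hnRNP splicing factors 3 fell and 0 rose (11 and 1 with the block), with HNRNPA3 2.33-fold lower (adjusted p = 0.0102). Among 27 genes of the endoplasmic reticulum stress response 2 rose and 3 fell (6 and 5 with the block), and among 40 proteasome genes 0 rose and 1 fell (1 and 10 with the block). Among 41 translation initiation genes 1 rose, EIF4E2, a repressive cap-binding protein (2.29-fold, adjusted p = 0.0065), and 2 fell (1 and 9 with the block). The inhibitor EIF4EBP1 was 1 of the 2 falls.

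Ribosomal protein genes differed more among EV libraries than between groups. Of 77 cytosolic ribosomal protein genes 0 rose and 0 fell in the plain test (0 and 17 with the block, median -0.43). Their median lay at 0.38, -0.88 and 0.52 in EV replicates 1 to 3 and at -0.38, -0.79 and -0.07 after construct 87. These transcripts are short, and the shortest of the 5 length classes had a median log2 fold change of -0.22. Of 73 nuclear-encoded oxidative phosphorylation genes 1 fell and 0 rose (22 and 1 with the block, median -0.46). The fall was ATP5J2, an ATP synthase subunit, from 1763, 972 and 2173 to 368, 338 and 466 (3.996-fold, adjusted p = 0.00365). Of 73 mitochondrial ribosomal genes 5 fell and 1 rose (32 and 2 with the block). The 14 mitochondrially encoded genes gave 0 calls in the plain test and 8 rises with the block, with EV library medians at -1.21, -0.05 and 1.20.

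Over the 452 genes of the 9 nuclear-encoded lists on synthesis and folding 26 fell and 5 rose in the plain test, and 149 fell and 16 rose with the block. Over all genes tested 4.43% fell in the plain test, a share near that of these lists, and 14.8% with the block. The falls numbered 2 without EV replicate 1, 2 without construct 87 replicate 1, 4 without construct 87 replicate 2 and 145 without EV replicate 2. LYAR and EIF4EBP1 lost their calls without EV replicate 1 (adjusted p = 0.0608 and 0.0595) or construct 87 replicate 1 (0.0618 and 0.0659). MXD1 and HSPA9 lost theirs without EV replicate 1 (0.0708 and 0.0737), construct 87 replicate 1 (0.0837 and 0.0987) or construct 87 replicate 2 (0.0594 and 0.0588).

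Metabolic genes changed in small groups. Of 30 genes of cholesterol synthesis and handling, whose synthesis enzymes run from acetyl-CoA to cholesterol under SREBP control, 6 fell and 1 rose (16 and 4 with the block, median -0.47). INSIG1, a sterol sensor, stood at 826, 461 and 1147 in EV and at 193, 210 and 292 after construct 87 (3.32-fold lower, adjusted p = 0.00804). The others that fell were the synthesis genes HMGCS1, PMVK, FDPS and SQLE and the cholesterol exporter ABCG1. The rise was ABCA1, also a cholesterol exporter. Falls of this list numbered 2 without EV replicate 1 or construct 87 replicate 2 and 1 without construct 87 replicate 1. SCD, which makes monounsaturated fatty acids, stood at 3649, 4391 and 4458 against 1391, 1987 and 1488 (2.59-fold lower, adjusted p = 0.00299), 1 of 2 falls and 2 rises among 34 lipid genes (6 and 5 with the block). The rises included PPARGC1A, the coactivator of mitochondrial genes, from 15.6, 22.8 and 23.7 to 58.9, 79.6 and 104 (3.73-fold, adjusted p = 0.00607).

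Of 33 ATF4 targets and tRNA synthetases 6 fell and 2 rose (12 and 2 with the block). The falls were NUPR1, ASNS, PSAT1, PHGDH, CEBPG and TARS, among them enzymes of asparagine and serine synthesis, and the rises SESN2 and VLDLR. Without EV replicate 1 or construct 87 replicate 1 or 2 the falls numbered 1 and the rises 0. Of 42 NRF2 and glutathione genes 3 fell, AKR1C1, AKR1C2 and CBR3, all carbonyl reductases, and 1 rose (16 and 2 with the block). CBR3 stood at 228, 115 and 132 against 34.7, 40.3 and 48.9 (3.63-fold lower, adjusted p = 0.00509), and the rise was the secreted peroxidase GPX3 (2.996-fold, adjusted p = 0.00951). NNMT, which methylates nicotinamide, stood at 1588, 404 and 733 against 162, 120 and 162 (5.28-fold lower, adjusted p = 0.00815), one of 6 falls and 0 rises among 24 polyamine and NAD genes (10 and 2 with the block).

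Glycolysis and hypoxia genes held 5 rises and 0 falls among 37 (8 and 0 with the block, median 0.09). KDM3A, a hypoxia-induced histone demethylase, stood at 221, 404 and 290 against 1286, 1005 and 847 (3.48-fold higher, adjusted p = 0.00334). Of 59 solute carriers 6 fell and 1 rose (15 and 7 with the block), with the amino acid carriers SLC43A1 2.92-fold lower (adjusted p = 0.00564) and SLC38A2 2.03-fold lower (adjusted p = 0.00748). Over the 252 genes of these 7 lists 29 fell and 11 rose (72 and 29 with the block). The falls numbered 13 without construct 87 replicate 1, 15 without EV replicate 1 and 17 without construct 87 replicate 2, and the rises 4, 3 and 5.

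Genes of the melanocyte lineage and neural crest moved in mixed directions. SOX10, the lineage factor of melanocytes and glia, stood at 2266, 5890 and 2625 normalised reads in EV and at 10559, 11347 and 7095 after construct 87 (2.90-fold higher, adjusted p = 0.0223). S100A1, a calcium-binding protein, stood at 185, 116 and 244 against 859, 579 and 663 (3.97-fold, adjusted p = 0.00272). PAX3, a factor upstream of MITF, stood at 149, 164 and 132 against 54.7, 66.8 and 58.0 (2.45-fold lower, adjusted p = 0.00554). They belong to 5 rises and 1 fall among 23 lineage and pigment genes (9 and 1 with the block).

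The list of the dedifferentiated and neural crest state held 8 rises and 2 falls among 31 genes (13 and 5 with the block, median 0.45). NES, the intermediate filament nestin, stood at 992, 1680 and 1111 against 5411, 5407 and 4102 (4.01-fold higher, adjusted p = 0.0087). NGFR, the neurotrophin receptor CD271, stood at 605, 1860 and 859 against 2579, 4048 and 1941 (2.76-fold, adjusted p = 0.0486). Of 26 receptor tyrosine kinases 3 rose and 0 fell (7 and 3 with the block). KDR, the VEGF receptor 2, stood at 45.6, 77.6 and 30.2 against 781, 501 and 180 (8.54-fold higher, adjusted p = 0.0065). Of the other endothelial markers, TIE1 stood at 44.5, 95.9 and 59.3 against 14.7, 48.0 and 97.7 and did not pass (adjusted p = 0.566), and PECAM1, CDH5 and VWF were not above 0 in both groups' files.

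Axon guidance genes, which code for secreted and membrane cues and their receptors, held 9 rises and 3 falls among 44 (19 and 6 with the block, median 0.45). SEMA7A, a membrane-anchored semaphorin, stood at 1002, 1166 and 941 against 5183, 6378 and 4483 (5.12-fold higher, adjusted p = 0.000393). Of 27 ganglioside and sialylation genes 7 rose and 2 fell (11 and 2 with the block), the falls being ST8SIA4 and GLTP, a glycolipid transfer protein, from 879, 563 and 608 to 99.8, 100.2 and 138 (5.98-fold, adjusted p = 0.000393). The rises of this list numbered 0 without EV replicate 1 and 1 without construct 87 replicate 1 or 2, while the falls stayed at 2. Of 34 ion channel genes 4 rose and 1 fell (6 and 6 with the block), led by the potassium channel subunit KCNS3, from 88.9, 61.2 and 56.1 to 1567, 562 and 428 (10.6-fold, adjusted p = 0.0023).

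Of 48 Rab and vesicle traffic genes 7 rose and 1 fell (11 and 7 with the block). RAB15 rose 3.73-fold (adjusted p = 0.00646), and RAB27B, which acts in exosome and melanosome secretion, fell 2.74-fold (adjusted p = 0.00819). Of 39 actin genes 4 rose and 0 fell (8 and 3 with the block), with the filament-severing protein gelsolin, GSN, from 1980, 2371 and 2421 to 5429, 4921 and 4952 (2.27-fold, adjusted p = 0.00538). Of 36 WNT and Notch genes 4 rose and 1 fell (6 and 8 with the block). Of 28 cancer-testis antigens 4 fell and 1 rose (8 and 2 with the block); the falls were SPANXC, SPANXD, MAGEC2 and PBK, and the knockdown targets are thus 2 of the 4. The falls of this list numbered 2 without EV replicate 1 or construct 87 replicate 1 or 2. MAGEC2 lost its call without EV replicate 1 or any construct 87 library (adjusted p = 0.051 to 0.0836), and PBK without EV replicate 1 or 3 or construct 87 replicate 1 or 2 (0.0724 to 0.132).

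Over the 290 genes of these 9 lists, the cancer-testis antigens left aside, 51 rose and 11 fell (87 and 40 with the block). The rises numbered 16 without construct 87 replicate 1, 21 without EV replicate 1 and 21 without construct 87 replicate 2. With EV replicate 3 left out there were 29. SOX10 and NGFR lost their calls without EV replicate 1 (adjusted p = 0.0945 and 0.18), EV replicate 3 (0.0623 and 0.116), construct 87 replicate 1 (0.102 and 0.143) or construct 87 replicate 2 (0.0836 and 0.16). Of 8 markers of neurons and glia 5 were tested, and their summed level was 539 to 802 normalised reads in EV and 1372 to 2404 after construct 87. MOBP was 1 of 2 that rose, SNAP25 (adjusted p = 0.162) and TUBB3 (adjusted p = 0.743) did not pass, and RBFOX3, GFAP and MBP were not above 0 in both groups' files.

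A further 2852 genes were called only with the block. NEAT1, the long noncoding RNA that builds paraspeckles, stood at 871, 2385 and 4608 normalised reads in EV replicates 1 to 3 and at 3404, 10226 and 12871 in the construct 87 libraries of the same numbers. Each construct 87 library was above the EV library of its own number, although the groups overlap (log2 1.85, SE 0.63, adjusted p = 0.0865, and 0.000309 with the block). APOBEC3G, a cytidine deaminase, stood at 550, 778 and 1597 against 243, 344 and 498 (log2 -1.34, adjusted p = 0.0683, and 0.000275 with the block). LGR6, an R-spondin receptor, stood at 67.8, 199 and 207 against 14.7, 42.8 and 62.1 (log2 -2.01, adjusted p = 0.093, and 0.000323 with the block).

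AKR1C3, a further steroid reductase of the family of AKR1C1, stood at 771, 362 and 996 against 207, 155 and 392 (adjusted p = 0.0506, and 0.000474 with the block). PIF1, a DNA helicase, stood at 219, 271 and 559 against 61.0, 106 and 156 (adjusted p = 0.0637, and 0.000359 with the block). The rises LAMA2, a laminin chain, and LPP, a focal adhesion protein, gave adjusted p = 0.0752 and 0.0581, and 0.000456 and 0.000639 with the block. In each of the 12 genes shown in the plot of paired libraries all 3 numbers moved the same way, which the blocked fit favours in choosing them.

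**Figure D5:**
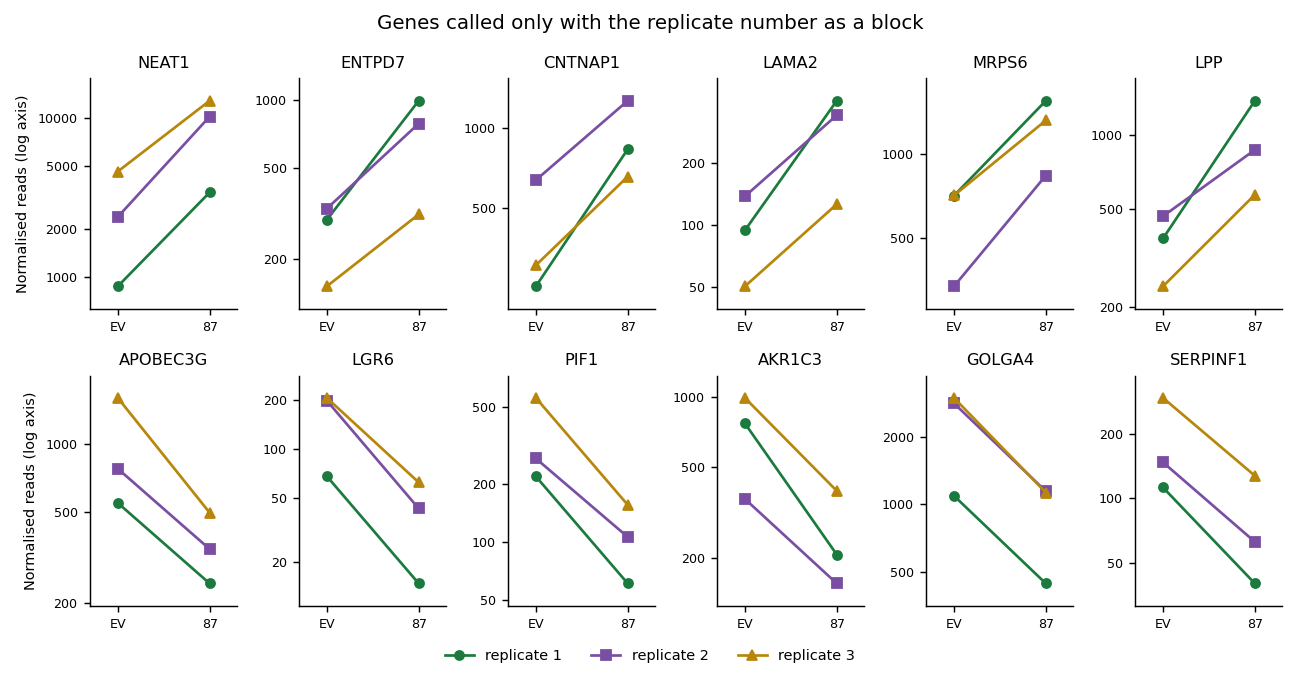
Normalised reads (y, log axis, a scale per gene) in the EV and construct 87 library of each replicate number, joined by a line, for the 6 rises and 6 falls of smallest blocked p among genes called only with the block. The choice was made among such genes with a change beyond 2-fold and a mean of at least 50. The 3 lines of a gene all run the same way from different heights, as for NEAT1 from 871, 2385 and 4608 to 3404, 10226 and 12871.

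Levels with construct 86 are given side by side for some leading genes, without a test, since both constructs share the EV libraries. IL1A stood at 1623 ± 1712 with construct 86 and BIRC3 at 2674 ± 2152 normalised reads (SD, n = 3), against 1939 ± 455 and 1318 ± 300 with construct 87. IGFBP3 stood at 462 ± 72.9 with construct 86 and at 7322 ± 2308 with construct 87, and SERPINI1 at 19.5 ± 3.2 and 163 ± 41.3. AKR1C2 stood at 461 ± 111 and 54.1 ± 35.7, and TIMP3 at 46278 ± 11471 and 4737 ± 1039. Against the EV libraries given earlier, the construct 86 mean lay above all of them for IL1A, BIRC3 and TIMP3. For IGFBP3 the construct 86 mean lay inside the EV range. TIMP3 thus stood above EV with construct 86 and below EV with construct 87. The difference between constructs was not tested here.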

How the data were processed

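RNA of A375 cells was sequenced from transcript 3' ends, and 3 EV and 3 construct 87 libraries were compared, 7 days after knockdown. The submitters' processing notes name STAR, featureCounts, Subread, edgeR and the build hg19, with no versions; the strand setting of the counting is not given in the sources used here. The deposited values are a score, scaled reads that the authors rounded to whole numbers, so no count test was run. Repeated rows of an ID were taken at their maximum, and 13825 of 60420 IDs, above 0 in both groups' files, were kept. Each library's scaling constant was recovered from the spacing of low values to give its depth. The 9 libraries were rescaled together by the TMM formula (trims of 30% and 5%), and log2(value + 1) was tested in limma 3.58.1 (R 4.3.3) with a variance trend and all 3 groups in the fit. Calls have a Benjamini-Hochberg adjusted p under 0.05 over all genes. Fold changes are on the log2(value + 1) scale and understate changes of low genes. The script was tested on simulated data.

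The replicate numbers come from the titles. Deviations from the group means were correlated between EV and construct 87 libraries across 13311 genes. They gave 0.208, 0.745 and 0.654 for libraries of the same number and -0.66 to 0.151 otherwise. Number 1 thus hardly stood apart from unlike pairs, and the labels do not say what a number marks. The replicate block is therefore given beside the plain counts.

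The comparison and the gene lists were chosen with earlier results of these data known. Named genes are the SPANX genes, lamins, EMD, MKI67 and CDKN1A; the 12 largest rises and 12 largest falls of a mean of at least 50 whose libraries do not overlap; the 6 largest gains and 6 largest losses in reads; the 6 rises and 6 falls of smallest blocked p among those called only with the block; and up to 4 members of smallest adjusted p in each list. The 6 rises and 6 falls called only with the block also had to change beyond 2-fold and to have a mean of at least 50. Pseudogenes and genes of nearly the same sequence as another were allowed to be skipped. NFKB1, MYC, EZH2 and NGFR, the marker genes and the members listed without values were chosen after the values were seen. Promoters of 10556 tested genes were matched by symbol to a RefSeq table (GRCh38.p14), a build other than that of the deposited files. Transcript lengths (GENCODE basic annotation), known for 13770 genes, served only the classes of transcript length and the removal of the length trend. Python 3.11.15 was used for tables and motifs. Intervals cover counting error only.

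Some genes are not reported here.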

Additional observations from a re-analysis of the deposited data

How the results depend on the processing

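With the replicate block the 1431 calls (818 higher, 613 lower) became 4283 (2231 and 2052), and 3825 (2037 and 1788) in the 6 libraries alone. The 6 libraries alone without the block gave 857 (530 and 327). Removing the length trend gave 1030 lower calls, and with the block 4783 calls (2345 and 2438). Leaving out 1 library gave 369 to 2554 calls, 226 to 1371 of them higher and 143 to 1183 lower. The cause was not tested. Values as deposited, median of ratios scaling, pseudocounts of 0.5 and 5, a mean of at least 20, summed rows and no variance trend gave 1318 to 1449 calls. The sum of SPANX ran from -4.16 to -3.27 with 1 library left out. Of 167 genes named, 149 kept their side of the threshold with the block and 18 were called in addition. Signs turned for 3 genes that were not called: LMNA (-0.39 to 0.06 over the libraries left out, above 0 without EV replicate 2), KRT10 (-0.70 to 0.03, above 0 without EV replicate 3) and TIE1 (-1.21 to 0.11, above 0 without construct 87 replicate 1). A planned edgeR test was not run, because the rounded values do not give whole reads for every gene. Of the 3456 genes of lowest level 8.45% were called and of the 3457 of highest level 10.3%; the part of depth in this was not tested.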

Other observations

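Some genes were above 0 in the construct 87 files and listed at 0 in the EV files, and could not be tested. There were 453 such IDs, with a median level of 17.3 normalised reads and 7 of at least 50, against 400 IDs above 0 in the EV files alone, with a median of 8.92 and none of at least 50. RGS8, a regulator of G protein signalling, stood at 188, 71.1 and 52.9 normalised reads in the construct 87 libraries. LCE1D, a late cornified envelope gene, stood at 206, 57.4 and 31.6, and NTNG2, a netrin, at 71.5, 52.2 and 34.6. KLHL3, a ubiquitin ligase adaptor, stood at 63.0, 76.2 and 62.1. CAPS2 stood at 54.6, 42.0 and 44.8, the antisense RNA FRMD6-AS1 at 55.7, 32.5 and 48.9, LINC00886 at 41.0, 41.1 and 47.9 and KCNAB3, a potassium channel subunit, at 12.6, 53.9 and 62.1. RGS8, LCE1D and NTNG2 were highest in construct 87 replicate 1. No fold is given, since an entry of 0 in these files can be the result of a filter.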
